A study of Homo sapiens with 6 samples.

Results

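The RNA-Seq table of the C4-2B model was searched for 9 genes that are used as surface targets or as secreted markers in prostate cancer, and all 9 were found among its 58024 genes. Of these, 7 encode surface antigens (FOLH1, STEAP1, STEAP2, PSCA, DLL3, CEACAM5 and CD276) and 2 encode proteins of the prostatic secretion (ACPP and MSMB). They were chosen by name for their use in imaging, in antibody therapy or as secreted markers, and not by a threshold on their values. Earlier results of these data were known when the choice was made. C4-2B is a human prostate cancer line of the LNCaP lineage, which was obtained by passage through castrated nude mice. The 3 parental libraries came from C4-2B cells kept in dimethyl sulfoxide, the vehicle, which the series record gives as 1% and the methods as at most 0.1%. The 3 resistant libraries came from a pool of the same line that had survived 1 to 20 µM enzalutamide, an antiandrogen, over at least 6 months and was then held in 5 µM. The labels also name 10 µM enzalutamide at RNA extraction, in a wording from which it cannot be read whether the parental cells received it. No source states that the 3 libraries of a group were grown from separate cultures, so that the p values measure the spread between these libraries, which may be technical, and the resistant cells are the outcome of 1 selection.

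Surface antigens of the prostate are membrane proteins that antibodies, radioligands or engineered T cells can reach from outside the cell. FOLH1, known as PSMA, is a membrane peptidase and the target of PSMA imaging, and in prostate cancer cells androgen signalling is known to hold its transcription down. STEAP1 and STEAP2 are membrane proteins of a metalloreductase family, PSCA and CEACAM5 are held in the membrane by a lipid anchor, CD276 (B7-H3) belongs to the B7 family of immune ligands, and DLL3 is an inhibitory Notch ligand best known from neuroendocrine tumors. ACPP, the prostatic acid phosphatase, and MSMB, the beta-microseminoprotein, are released by luminal cells into seminal fluid.

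Values are FPKM, the fragments of a gene relative to its transcript length and to all mapped fragments, a scale on which levels of different genes can be compared. The columns summed to between 792976 and 870110 FPKM, and the steps of the low values gave a depth of roughly 13300000 to 20100000 reads per library when fragments of 200 bases were assumed. Luminal identity, which the labels do not name, was checked with 8 marker genes, all of which had means above 1 FPKM. KRT8, a luminal keratin, was between 125 and 180 FPKM in the 6 libraries and was called higher in the resistant ones (139 to 170 FPKM on average). Among the other luminal keratins of the list, KRT19 was called higher (19.45 to 274 FPKM on average) and KRT18 was called lower (227 to 160). The 8 luminal markers summed to between 3446 and 4135 FPKM in parental and between 1275 and 1369 FPKM in resistant libraries. KLK3, the gene of PSA, held most of the parental sums (2321 to 2857 FPKM) and was at 41.8 to 46.8 FPKM in resistant libraries. The drop of the sum is therefore that of KLK3 and does not describe the other luminal markers. Of the 8, 4 were called lower and 3 higher. The 6 basal markers summed to between 14.1 and 23.9 FPKM in parental and between 23.6 and 30.5 FPKM in resistant libraries, and DST, a cytoskeletal linker, held most of these sums (13.4 to 28.5 FPKM). Of the 3 basal markers tested, KRT15 was called higher (0.102 to 1.73 FPKM on average), KRT14 was called lower (0.669 to 0) and DST was not called. Of those below the filter, KRT5 and TP63, which define basal cells, were at 0 in all parental libraries and at most 0.227 FPKM in the resistant ones, and NGFR was at 0 in all parental libraries and at 0.166, 0.212 and 0.217 FPKM in resistant libraries. The 6 markers of fibroblasts and stroma summed to between 8.15 and 10.2 FPKM in parental and between 10.7 and 17.6 FPKM in resistant libraries, and 3 of the 5 tested were called higher. These were DCN, listed at 0 in all parental libraries and at 3.63, 3.78 and 4.35 FPKM in resistant libraries, LUM (0.0604 to 0.969 FPKM on average) and ACTA2 (1.31 to 2.69 FPKM on average). COL1A1 and COL3A1, collagens of fibroblasts, were not called, and COL1A2 was at most 0.132 FPKM in any library. The 5 endothelial markers summed to between 0.709 and 1.14 FPKM in parental and between 0.170 and 0.420 FPKM in resistant libraries, with VWF called lower. The 6 markers of blood and immune cells summed to between 0.657 and 0.873 FPKM in parental and between 0.145 and 0.786 FPKM in resistant libraries, and none of the 3 tested was called (limma, unadjusted p = 0.0955 for CD14, 0.159 for CD68 and 0.304 for HBB, so that 0 were below 0.05). The part of these markers in the results on the 9 genes was not tested.

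Most of the surface antigens were lower in the enzalutamide resistant cells, and none of the 9 genes passed the test as higher. FOLH1, CD276 and DLL3 were between 2.34-fold and 3.40-fold lower, PSCA was 15.6-fold and MSMB 13.3-fold lower, and STEAP2 was lower by less than a 2-fold step. STEAP1 differed by less than the spread of the libraries, ACPP was higher in the resistant libraries without passing the test, and CEACAM5 was at the floor. The 8 genes whose mean reached 0.1 FPKM were tested, and 6 of them were called lower with limma at a Benjamini-Hochberg adjusted p below 0.05. Over all 24468 genes tested, 22.3% were called lower and 22.1% higher, 44.4% in all. Among the 16382 genes whose mean reached 1 FPKM, as that of all 8 members did, 28.3% were called lower and 24.9% higher, 53.2% in all. The libraries of the groups did not overlap for 7 of the 8 genes, with the resistant ones below for 6, against 54.8% of all genes tested in either direction and 28.1% with the resistant libraries below. A decrease of at least 2-fold was called for 5 of the 8, against 13.6% of the genes tested. The median log2 fold change of the 8 genes was −1.45, against −0.054 over all genes tested. Because the members were chosen with earlier results known, these comparisons with all genes are descriptive. Whichever library was omitted, 6 members were called lower. In bulk RNA, fewer cells that carry a transcript and less RNA per cell cannot be told apart.

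**Figure D1:**
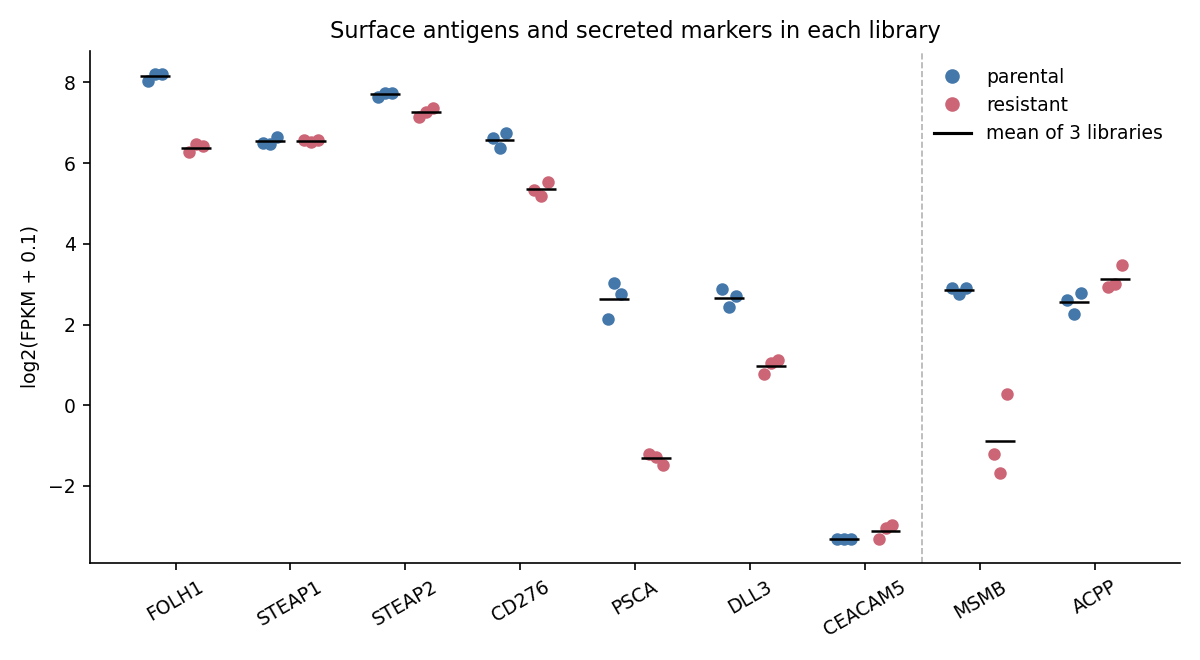
Level of each gene in each library as log2(FPKM + 0.1), with the 3 parental libraries in blue, the 3 resistant libraries in red and the mean of each group as a bar, surface antigens left of the dashed line and secreted markers right of it. The groups lie apart, with the resistant libraries below, for FOLH1, STEAP2, CD276, PSCA, DLL3 and MSMB, and the points of STEAP1 lie at one height.

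FOLH1 had the highest level of the 9 genes in the parental cells. Its gene lies on chromosome 11 (GRCh38, 49145092 to 49208638, minus strand) and was at 264, 294 and 295 FPKM in parental libraries, above 98.7% of the genes tested. In the resistant libraries it was at 77.0, 88.4 and 85.5 FPKM, still above 94.4% of the genes tested. All resistant values were below all parental values. The mean fell from 284 ± 18.0 to 83.6 ± 5.89 FPKM (SD, n = 3 each). The log2 fold change of FOLH1 was −1.76 (standard error 0.082, adjusted p = 2.60e-05). This was a 3.40-fold decrease with a 95% interval for the remaining level of 0.257 to 0.338 of the parental level. The transcripts of FOLH1 share 20.6% of their 50-base windows, the length of the reads, with FOLH1B, a near copy on the same chromosome. FOLH1B was listed at 0.219 to 0.540 FPKM in parental libraries and at 1.36 to 2.66 FPKM in resistant libraries. This was 0.0742 to 0.184% of the FOLH1 value in parental libraries and 1.59 to 3.004% in resistant libraries. Of the windows of FOLH1B, 50.9% occur in FOLH1, and the higher FOLH1B value (log2 fold change 2.18, adjusted p = 0.00812) is therefore uncertain.

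Other peptidases of the FOLH1 family were lower as well. NAALAD2 was at 2.21, 3.19 and 3.42 FPKM in parental libraries and at 0.0622, 0.0727 and 0.0718 FPKM in resistant libraries, and its log2 fold change was −4.15. NAALADL2 fell from a mean of 41.4 to 23.8 FPKM (log2 fold change −0.78). Of the 5 genes of this family, FOLH1 included, 3 were called lower, 1 was called higher (FOLH1B) and 1 did not pass the threshold.

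STEAP1 and STEAP2 are neighbors on chromosome 7 with 2761 bases between them, and they differed in their response. STEAP1 (90154456 to 90164829, plus strand) was at 90.8, 88.7 and 99.5 FPKM in parental libraries and at 94.8, 91.8 and 95.8 FPKM in resistant libraries. The ranges of the groups overlapped. Its log2 fold change was 0.019 with a 95% interval from −0.15 to 0.19, so that a change beyond a fold of 0.902 to 1.14 lies outside the interval (limma, adjusted p = 0.852). STEAP2 (90167590 to 90238137, plus strand), a metalloreductase of the same family, was at 198, 214 and 213 FPKM in parental libraries and at 140, 154 and 164 FPKM in resistant libraries. All resistant values lay below the parental ones, and the log2 fold change was −0.45 (standard error 0.078, adjusted p = 0.00447). The resistant mean was 26.5% lower than the parental mean. The ratio of STEAP2 to STEAP1 within a library, which does not depend on the scaling of the libraries, was 2.18, 2.41 and 2.14 in the parental cells and 1.48, 1.68 and 1.71 in the resistant cells. The ratios of the groups did not overlap, which gives p = 0.1 in a two-sided exact permutation test, the smallest value that 3 libraries against 3 allow.

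The promoter of STEAP1 is shown because it is the antigen whose level did not differ between the cell types beyond the spread of the libraries. The stretch below is the part of the 250 bases before the RefSeq start that overlaps no GENCODE exon (GRCh38.p14, chr7:90154219-90154455, plus strand), and the capitals mark a CAGCTG E-box.
STEAP1: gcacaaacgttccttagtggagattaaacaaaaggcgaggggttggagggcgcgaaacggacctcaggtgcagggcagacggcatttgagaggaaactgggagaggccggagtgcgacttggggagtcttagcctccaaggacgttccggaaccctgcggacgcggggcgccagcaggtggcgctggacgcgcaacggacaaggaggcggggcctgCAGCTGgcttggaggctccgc
An E-box with these letters was found in 14.0% of the 35116 promoters of the same length, searched on both strands. The window of STEAP2 (chr7:90211490-90211739) lies inside the gene, before an internal RefSeq start, and is not a counterpart of the STEAP1 window. It holds no E-box of this form and 1 GC box (GGGCGG, found in 42.6% of promoters). It is crossed by exons of STEAP2 and of its antisense gene and is not printed. STEAP2-AS1, the antisense RNA that overlaps both genes, was at 2.49, 1.43 and 1.82 FPKM in parental libraries and at 2.08, 2.32 and 1.35 FPKM in resistant libraries (log2 fold change 0.0014). How the strand was used in counting is not given in the sources used here, so that reads of the antisense RNA and of the STEAP genes may not be separated.

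The other members of the STEAP family were lower or near the floor. STEAP3, a ferrireductase of endosomes, was at 13.4, 14.6 and 12.1 FPKM in parental libraries and at 3.03, 3.36 and 2.62 FPKM in resistant libraries (log2 fold change −2.12, standard error 0.15, adjusted p = 1.20e-04). STEAP4 fell from 0.468 to 0.0572 FPKM. STEAP1B was at 0.0868 to 0.513 FPKM in parental libraries and at 0.0799 to 0.207 FPKM in resistant libraries and did not pass the threshold, and its transcripts hold the 22.5% of the STEAP1 windows that STEAP1 shares with another gene. Of the 5 STEAP genes, 3 were called lower and 2 were not called. CFAP69, the next protein-coding gene after STEAP2, went the other way, from 7.66, 7.29 and 6.65 FPKM to 34.1, 28.5 and 31.1 FPKM (log2 fold change 2.10).

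CD276 was close to STEAP1 in the parental cells and below it in the resistant cells. It lies on chromosome 15 (73683966 to 73714514, plus strand) and was at 98.7, 82.2 and 107 FPKM in parental libraries. In the resistant libraries it was at 40.4, 36.5 and 46.0 FPKM. The groups did not overlap, and the log2 fold change was −1.22 (standard error 0.13, adjusted p = 5.86e-04), a fold of 0.428 with a 95% interval from 0.344 to 0.534. The window of 250 bases before its RefSeq start (chr15:73684133-73684382) lies inside the gene, after the start given above. It holds 7 GC boxes, with overlaps, and a CCAAT box. The stretch of this window outside GENCODE exons is shown for its run of GC boxes in capitals (chr15:73684133-73684268, plus strand).
CD276: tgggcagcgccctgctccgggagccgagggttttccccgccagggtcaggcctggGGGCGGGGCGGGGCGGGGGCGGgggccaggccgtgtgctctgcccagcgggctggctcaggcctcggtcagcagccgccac
The genes on either side of CD276 did not fall with it. NPTN was at 31.2 to 38.6 FPKM in the parental and at 34.9 to 39.9 FPKM in resistant libraries (log2 fold change 0.068, adjusted p = 0.650), and C15orf59 was higher in the resistant cells at a mean of 0.701 against 0.0704 FPKM. Among the 10 genes of the B7 family, 5 were tested. CD274, which encodes PD-L1, was at 1.15, 2.999 and 1.75 FPKM in parental libraries and at 0.295, 0.948 and 0.594 FPKM in resistant libraries (log2 fold change −1.55, adjusted p = 0.0468). NCR3LG1, a ligand of natural killer cells, was at 6.44 FPKM in the parental and 7.12 FPKM in the resistant cells and did not pass the threshold. In this family, CD276 included, 2 genes were called lower, 1 higher and 2 not at all.

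PSCA and MSMB had the largest decreases of the 9 genes on the log2 scale, with intervals that overlap. PSCA lies on chromosome 8 (142670308 to 142682725, plus strand) and was at 4.32, 8.10 and 6.64 FPKM in parental libraries. In the resistant libraries it was at 0.335, 0.313 and 0.259 FPKM. The parental values varied by almost a 2-fold step among themselves and were all above the resistant ones. The log2 fold change was −3.96 (standard error 0.30, adjusted p = 1.57e-04), and 1.3% of the genes tested had a lower log2 fold change. At the length of its longest transcript and a fragment of 200 bases, the resistant values amount to an estimated 4.4, 3.9 and 2.9 reads, against 68.1, 120.9 and 69.2 reads in the parental libraries. The size of the decrease therefore follows the pseudocount, with a log2 fold change of −2.46 at 1 FPKM and −4.31 at 0.01 FPKM, while the ratio of the mean FPKM was 21.0. JRK, a gene on the opposite strand that overlaps PSCA and shares its Cufflinks locus, was higher in the resistant libraries (6.71, 8.09 and 7.71 against 10.4, 15.2 and 18.6 FPKM).

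Several relatives of PSCA on the same chromosome were lower too. LY6E, an interferon-induced membrane protein of the LY6 family, was at 99.7, 103 and 112 FPKM in parental libraries and at 6.24, 7.32 and 6.63 FPKM in resistant libraries. Its log2 fold change of −3.94 (standard error 0.10, adjusted p = 3.76e-06) was close to that of PSCA and was measured at a much higher level. LYNX1, a neural modulator of the same family, was at 8.85, 3.75 and 3.18 FPKM in parental libraries and at 0.229, 0.608 and 0.338 FPKM in resistant libraries (log2 fold change −3.37). Of the 10 LY6 genes of chromosome 8 in the list, PSCA included, 4 were called lower, 1 was called higher and 5 were below the filter. The gene called higher was LY6K, the nearest protein-coding gene after PSCA, at 0 in all parental libraries and at 0.751, 0.589 and 0.117 FPKM in resistant libraries. ARC, the nearest on the other side, fell from 4.81, 4.34 and 3.74 FPKM to 0.358, 0.641 and 0.639 FPKM (log2 fold change −2.80). On other chromosomes, PLAUR, the urokinase receptor, rose from 0.623 to 5.51 FPKM (log2 fold change 2.96), and CD59, a complement inhibitor, was at 33.0 to 46.8 FPKM in parental and 43.3 to 46.2 FPKM in resistant libraries (log2 fold change 0.10, adjusted p = 0.602). Over the 17 genes of the LY6 and uPAR domain family, 11 were tested, with 4 called higher and 4 called lower.

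DLL3 was lower in the resistant cells although several neuroendocrine markers were higher there. The gene lies on chromosome 19 (39498895 to 39508481, plus strand) and was at 7.23, 5.27 and 6.38 FPKM in parental libraries and at 1.61, 1.96 and 2.08 FPKM in resistant libraries. The groups did not overlap. The log2 fold change was −1.69 (standard error 0.20, adjusted p = 8.71e-04), a fold of 0.311 with a 95% interval from 0.222 to 0.434. The 8 neuroendocrine markers summed to between 7.14 and 11.3 FPKM in the parental and between 208 and 233 FPKM in resistant libraries, and 5 of the 6 tested were called higher. INSM1, a transcription factor that defines neuroendocrine cells, was listed at 0.0558, 0 and 0 FPKM in parental libraries and at 0.0369, 0 and 0 FPKM in resistant libraries. NEUROD1, another such factor, was listed at 0 in all parental libraries and at most 0.105 FPKM in the resistant ones. The part of these markers in the DLL3 values was not tested. TIMM50, the gene before DLL3, fell from 109 to 68.3 FPKM (log2 fold change −0.67).

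Other Notch ligands were lower together with DLL3. JAG1 was at 11.9, 10.1 and 9.63 FPKM in parental libraries and at 0.198, 0 and 0.195 FPKM in resistant libraries (log2 fold change −5.68, adjusted p = 2.14e-04). JAG2, the most abundant ligand of the list, was at 52.4, 52.6 and 57.6 FPKM in parental libraries and at 17.3, 22.7 and 20.6 FPKM in resistant libraries (log2 fold change −1.43). Of the 7 ligands, DLL3 included, 6 were tested, with 4 called lower (DLL1, DLL3, JAG1 and JAG2), 1 higher (DLK2) and 1 not called (DLL4).

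CEACAM5, the carcinoembryonic antigen, was not detected in the parental cells. It lies on chromosome 19 (41708585 to 41730433) and was listed at 0 in all parental libraries and at 0, 0.0207 and 0.0279 FPKM in resistant libraries. The 2 values above 0 amount to an estimated 1.1 and 1.3 reads, and the mean was below the filter of 0.1 FPKM, so that no fold change is given. The two-sided exact permutation test on the log2 values gave p = 0.4 for 3 libraries against 3. Of the 12 CEACAM genes, only CEACAM19 reached the filter, with a mean of 1.27 FPKM in the parental and 0.187 FPKM in the resistant cells, and CEACAM6, in the same locus, was at 0, 0.0196 and 0.201 FPKM in parental libraries and at 0.0654, 0.0234 and 0.158 FPKM in resistant libraries. Whether a listed 0 is a measured absence cannot be read from FPKM alone.

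**Figure D2:**
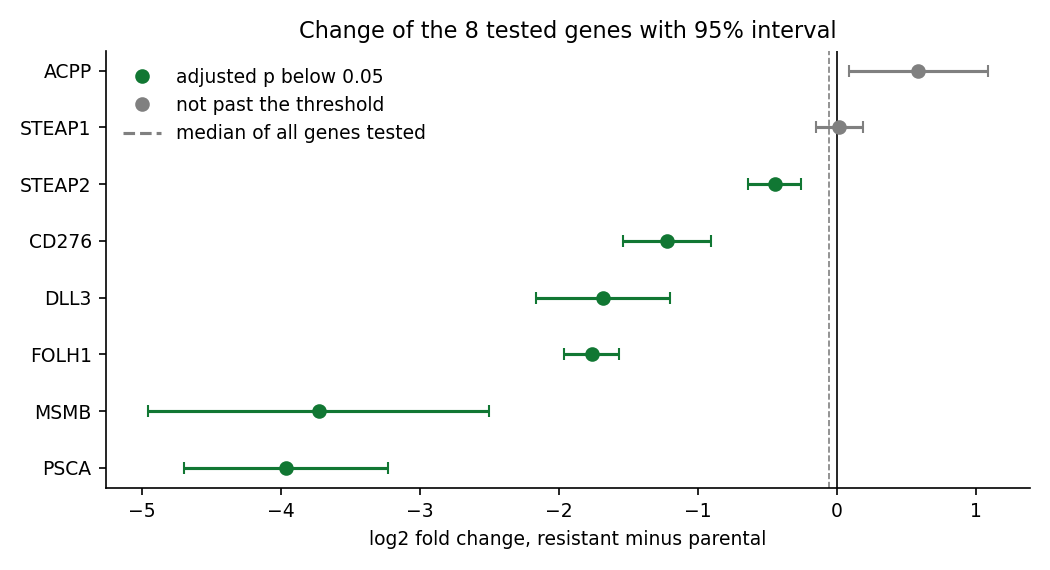
Log2 fold change of the 8 tested genes, resistant minus parental, on log2(FPKM + 0.1), with the 95% interval of the limma fit, in green where the adjusted p was below 0.05 and in grey otherwise. The intervals of PSCA, MSMB, FOLH1, DLL3, CD276 and STEAP2 lie below 0, that of STEAP1 includes 0, and that of ACPP runs from 0.088 to 1.09.

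The secreted markers went in different directions. MSMB on chromosome 10 (46033307 to 46048180, minus strand) was at 7.38, 6.62 and 7.41 FPKM in parental libraries and at 0.330, 0.211 and 1.11 FPKM in resistant libraries. All resistant values were below the parental ones, and resistant replicate 2 was the highest of them. The log2 fold change was −3.73 (standard error 0.51, adjusted p = 0.00155), and it was −4.30 without resistant replicate 2 and −2.44 with a pseudocount of 1 FPKM. The resistant values amount to an estimated 4.0, 2.4 and 11.3 reads, against 71.1 to 107.1 reads in the parental libraries. NCOA4, a coactivator and ferritin receptor whose gene lies 2684 bases from MSMB, did not follow it, with 60.4, 58.8 and 62.5 FPKM in the parental and 59.0, 65.3 and 61.8 FPKM in resistant libraries (log2 fold change 0.034, adjusted p = 0.724).

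ACPP on chromosome 3 (132317369 to 132368302, plus strand) was at 6.04, 4.73 and 6.72 FPKM in parental libraries and at 7.57, 7.98 and 11.0 FPKM in resistant libraries. All resistant values were above all parental values, a pattern that 26.6% of the genes tested showed in this direction. The log2 fold change was 0.59 (standard error 0.21, limma, adjusted p = 0.0601), which did not pass the threshold. The adjusted p was 0.0481 when the filter was raised to a mean of 1 FPKM, 0.0419 with the libraries scaled to a common median and 0.0357 with a common sum over protein-coding genes, so that the call depends on these choices. The ratio of MSMB to ACPP was 1.22, 1.40 and 1.10 in parental libraries, and it was 0.0436, 0.0265 and 0.101 in resistant libraries. The promoter stretch of ACPP outside exons is printed as that of the one member with a positive difference beyond the range of the parental libraries (chr3:132317157-132317368, plus strand, RefSeq symbol ACP3), and it holds none of the letters searched, so that no base is in capitals.
ACPP: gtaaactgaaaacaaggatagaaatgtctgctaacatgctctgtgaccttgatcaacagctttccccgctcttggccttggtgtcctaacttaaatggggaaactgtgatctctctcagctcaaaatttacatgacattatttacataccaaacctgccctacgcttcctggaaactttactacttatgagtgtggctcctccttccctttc
The letters searched in each promoter, on both strands, were the hexamer AGAACA of the androgen response element, the forkhead motif TGTTTAC, the E-box CAGCTG, the TATA box TATAAA, the GC box GGGCGG and the CCAAT box (CCAAT, found in 32.0% of promoters). Among the 5 members with a promoter sequence here, AGAACA was found in that of CEACAM5 and in no other, against 12.4% of all promoters. The forkhead motif and TATAAA were found in none of the 5, against 2.98% and 10.7% of all promoters. FOLH1, DLL3 and MSMB had no entry of the full length used here.

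The neighbors of ACPP and the other acid phosphatases showed no common direction. CPNE4, the gene before ACPP, rose from 0.229, 0 and 0 FPKM to 4.88, 4.93 and 9.04 FPKM, and DNAJC13, the gene after it, was at 21.1 to 21.8 FPKM in the parental and 18.9 to 21.9 FPKM in resistant libraries. ACP1, a cytosolic tyrosine phosphatase, rose from 55.3 to 79.1 FPKM (log2 fold change 0.52, adjusted p = 0.00356). ACP2, the lysosomal acid phosphatase, fell from 48.4 to 20.5 FPKM (log2 fold change −1.23, adjusted p = 0.00308), and ACP6 fell from 28.6 to 18.5 FPKM (log2 fold change −0.59, adjusted p = 0.0452). PXYLP1 was at 9.92 and 10.4 FPKM and did not pass the threshold. Of the 8 genes of this list, 6 were tested, with 1 called higher and 2 lower.

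The order of the 9 levels changed between the cell types. In the parental cells, FOLH1 was followed by STEAP2 and then by CD276 and STEAP1, whose ranges overlapped. MSMB, PSCA, DLL3 and ACPP came next with means from 5.83 to 7.14 FPKM, and each overlapped its neighbor in this order. In the resistant cells, STEAP2 was highest, followed by STEAP1, FOLH1, CD276, ACPP, DLL3, MSMB and PSCA, and only the ranges of MSMB and PSCA overlapped between neighbors. FOLH1 was 3.06 ± 0.220 times as high as STEAP1 in the parental libraries and 0.889 ± 0.0749 times as high in the resistant libraries (SD, n = 3 each, two-sided exact permutation p = 0.1, the smallest this design allows).

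The summed level of the 7 surface antigens was 663, 692 and 728 FPKM in parental libraries and 355, 373 and 394 FPKM in resistant libraries. The sum did not overlap between the groups (two-sided exact permutation p = 0.1 for 3 libraries against 3). FOLH1 made up 39.8 to 42.5% of this sum in the parental and 21.7 to 23.7% in the resistant libraries. STEAP1 made up 12.8 to 13.7% in parental and 24.3 to 26.7% in resistant libraries, and STEAP2 29.2 to 30.9% and 39.6 to 41.7%, while neither gene was called higher in FPKM.

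**Figure D3:**
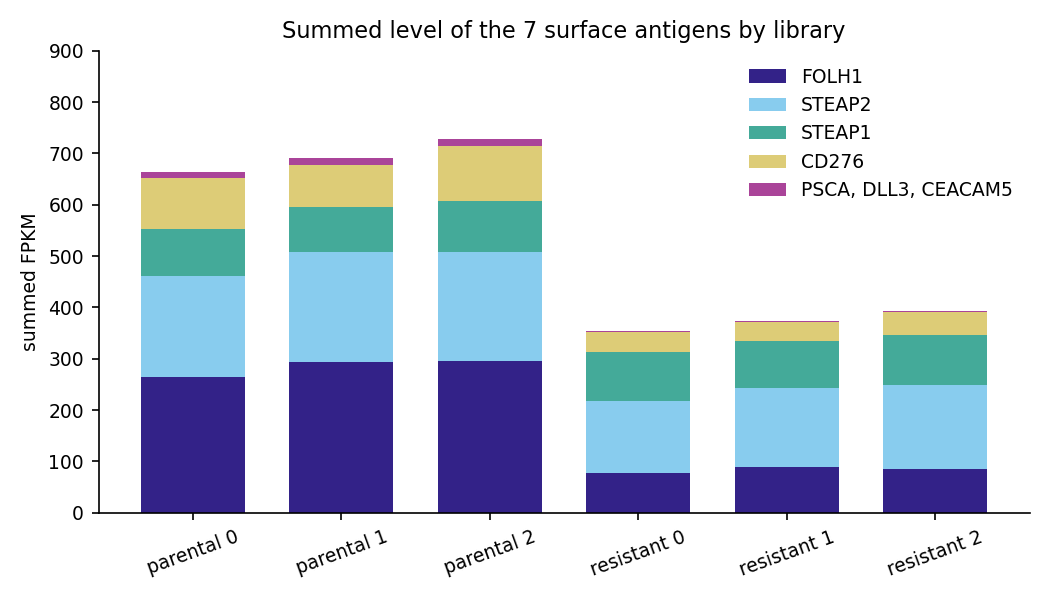
Stacked FPKM of the 7 surface antigens in each library, with FOLH1, STEAP2, STEAP1 and CD276 as separate parts and PSCA, DLL3 and CEACAM5 together. The parental bars reach 663 to 728 FPKM and the resistant bars 355 to 394 FPKM, and the STEAP1 part keeps its height while the FOLH1 part shrinks.

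Other surface proteins that have been tried as targets in prostate cancer moved in both directions. Of the 24 genes of this list, 20 were tested, 10 were called lower and 7 higher. TRPM8, a cold-sensing channel of luminal cells, was at 58.5, 53.4 and 71.2 FPKM in parental libraries and at 0.279, 0 and 0.431 FPKM in resistant libraries (log2 fold change −7.80). HPN, a membrane protease, fell by 2.12 and SLC44A4, a choline transporter-like protein, by 1.88 on the log2 scale, from 56.9 and 91.5 FPKM in the parental cells. CDCP1 was near 30.7 FPKM in all parental libraries and between 3.68 and 4.01 FPKM in resistant ones, and GRPR, the bombesin receptor used in imaging, fell from 2.66 to 0.0384 FPKM (log2 fold changes −2.98 and −4.32). TMEFF2 rose from 0.787, 0.983 and 0.944 FPKM to 29.1, 31.1 and 30.8 FPKM (log2 fold change 4.92, standard error 0.14, adjusted p = 5.57e-06). CD44, an adhesion receptor, rose from 0.0120, 0.543 and 0.181 FPKM to 23.7, 24.1 and 32.8 FPKM (log2 fold change 6.61), and F3, the tissue factor, rose from 0.211 to 6.57 FPKM. SLC39A6, a zinc carrier that is also an antibody target, rose from 55.5 to 95.4 FPKM, and L1CAM from 0.531 to 3.79 FPKM. The family lists and those of surface targets, secretions and regulators, without the 9 members, covered 107 genes, of which 73 were tested. Of these 73, 33 were called lower and 20 higher, with a median log2 fold change of −0.42. Over all genes tested, 22.3% were called lower and 22.1% higher.

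Prostate secretions outside the members showed large changes. Of the 17 genes of this list, 14 were tested, 7 were called lower and 3 higher. KLK3, which encodes PSA, was at 2489, 2321 and 2857 FPKM in parental libraries and at 46.8, 43.5 and 41.8 FPKM in resistant libraries (log2 fold change −5.85, standard error 0.094, adjusted p = 1.10e-06). KLK2 fell from 462 to 81.9 FPKM, SPON2 from 505 to 4.95 FPKM, GDF15 from 286 to 27.5 FPKM and AGR2 from 53.3 to 2.12 FPKM. KLK4 rose from 139 to 266 FPKM, KLK11 from 0.0811 to 46.0 FPKM and CLU, the chaperone clusterin, from 47.5 to 774 FPKM. MSMB went with the genes called lower, and its log2 fold change of −3.73 stands between those of KLK3 and GDF15 (−3.38). Among the regulators of luminal cells, HOXB13 was at 103 and 102 FPKM (log2 fold change −0.016, adjusted p = 0.884), and GATA2 fell by 0.34 on the log2 scale. POU3F2, a neural factor, rose from 0.0693 to 0.769 FPKM.

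**Figure D4:**
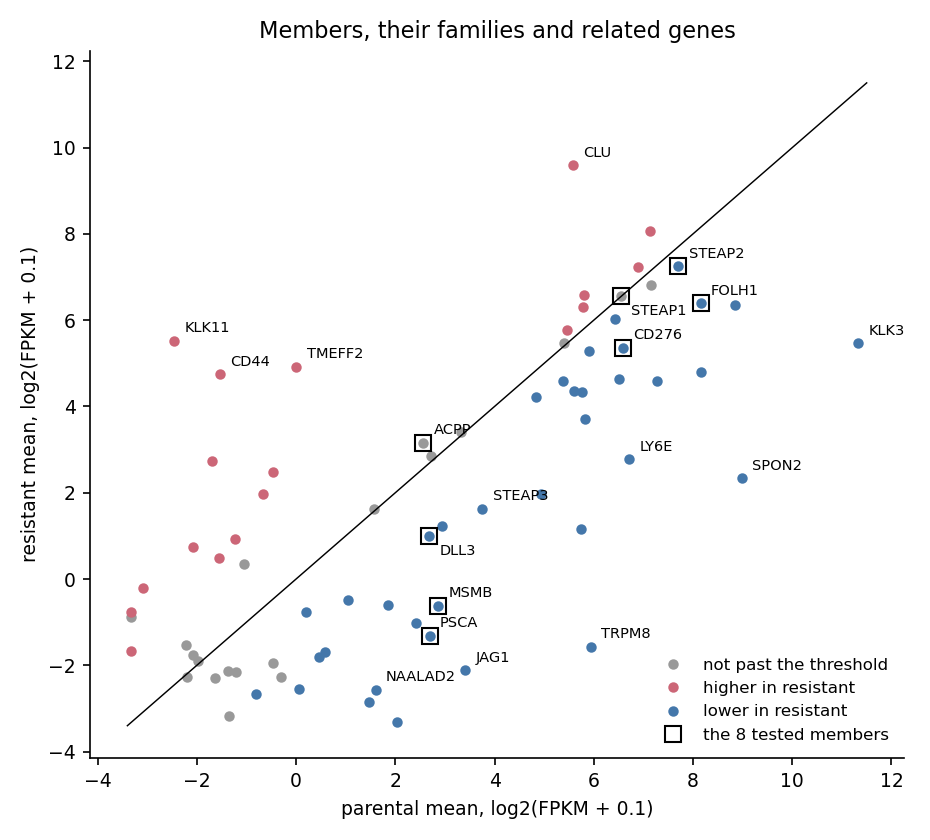
Mean level in the parental libraries against the mean level in the resistant libraries, both as log2(FPKM + 0.1), for the 8 tested members (squares) and the tested genes of their families and of the lists of surface targets and secretions, in blue where called lower, in red where called higher and in grey otherwise. The line marks equal levels, and STEAP1 lies on it while FOLH1, CD276, DLL3, MSMB and PSCA lie below.

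For each member that was called, the protein-coding genes with the most similar profile over the 6 libraries were looked up among 12368 others that reached 1 FPKM, as the smallest Euclidean distance between centred log2 values. The closest to FOLH1 was RFX7, at a distance of 0.10 (from 12.5 to 3.71 FPKM), and the closest to STEAP2 was NAPG, at 0.056 (from 31.8 to 23.8 FPKM). For CD276 it was SLC22A17 at 0.13, followed by PKM at 0.16, which fell from 1158 to 501 FPKM. For DLL3 it was TTPAL at 0.20 and for MSMB it was IL32 at 0.49. The closest to PSCA was NAALAD2, the relative of FOLH1, at 0.46. With 2 groups of 3 libraries, such a likeness reflects mainly the size of the change.

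**Figure D5:**
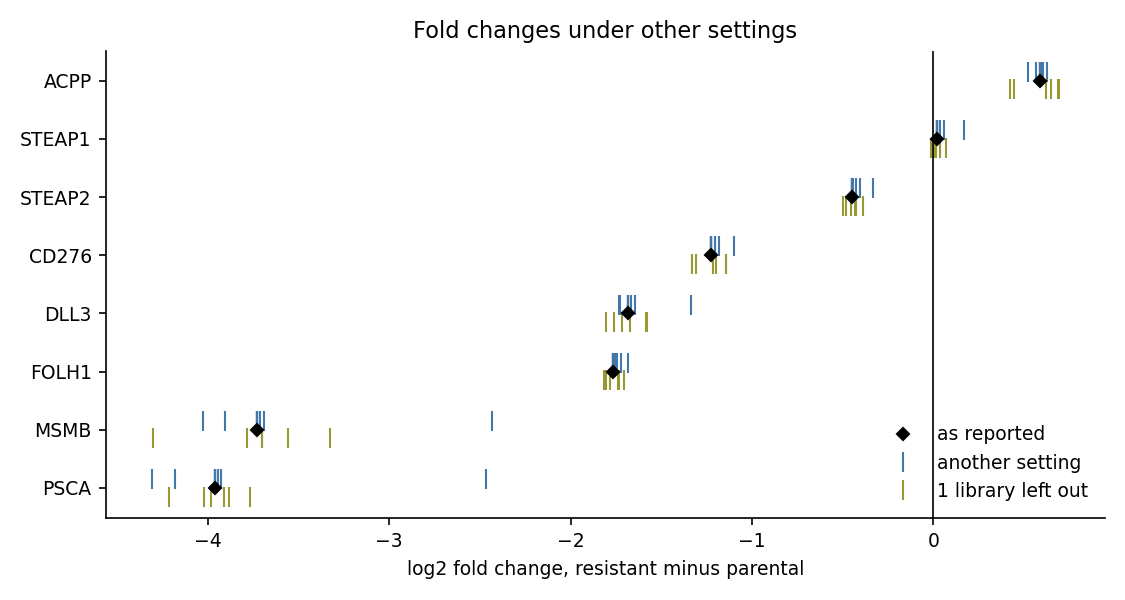
Log2 fold change of each tested gene, resistant minus parental, as reported (diamond), under the other settings (blue bars) and with 1 library left out (olive bars). FOLH1 stays between −1.82 and −1.69 and CD276 between −1.33 and −1.10, while PSCA and MSMB move to −2.46 and −2.44 with a pseudocount of 1 FPKM.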

How the data were processed

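The authors deposited a table of FPKM values with 1 value per gene and library. Per the methods of the study, single-end reads of 50 bases from stranded total RNA libraries were trimmed with TrimGalore 0.4.3, aligned with STAR 2.5.3 to GRCh38 with the annotation of GENCODE release 25 and quantified with Cufflinks 2.2.1. The submitters' processing notes instead name Trimmomatic 0.27, FastQC 0.10.1 and a mouse build, while the identifiers are human and the loci of 100% of the 56935 genes matched to GENCODE release 44 overlap their GRCh38 positions. The table header names no unit and no scaling between libraries.

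FPKM carries no read counts, so no count test was run. The groups were compared with limma 3.58.1 (lmFit, eBayes with trend) in R 4.3.3 on log2(FPKM + 0.1) over 24468 genes whose mean reached 0.1 FPKM. Tests were two-sided, with Benjamini-Hochberg adjustment over all these genes and a threshold of 0.05. Fold changes are on the log2(FPKM + 0.1) scale, which understates changes of low genes. CEACAM5 was below the filter and was compared with an exact permutation test. The fit was tested on simulated data. Depth and estimated reads come from the steps of low values on genes with a single transcript, where 41.8 to 53.5% of values were within 0.1 of a whole read. Promoters are from RefSeq and were found for 5 of the 8 members outside chromosome 8. Those of STEAP2 and CD276 lie inside the gene, before an internal start. Python 3.11.15, pandas 2.3.3, numpy 2.4.6, scipy 1.17.1 and matplotlib 3.10.9 were used.

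The members and lists were chosen with earlier results of these data known. Named beside the 9 members were family genes at 1 FPKM or more, up to 5 called genes per direction in the lists of surface targets, secretions and regulators, the flanking protein-coding genes and the genes of similar profile. STEAP1B, STEAP4, CEACAM19, DLL1, DLK2, DLL4, JRK, STEAP2-AS1, HOXB13, NEUROD1 and the markers, INSM1 among them, stand outside this rule. All of these were named after their values were seen. Some genes covered by the rule are not reported here. The alternatives covered the pseudocount, the filter, the scaling, the trend, a replicate block, each library left out and the thresholds.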

Additional observations from a re-analysis of the deposited data

How the results depend on the processing

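Across 17 alternatives, the 8 tested genes gave 136 values, of which 130 kept their direction and their side of the threshold. FOLH1, PSCA, DLL3, CD276 and MSMB were called lower in all of them. STEAP2 was called lower in all but the 2-fold requirement, which its log2 fold change of −0.45 misses. ACPP was called higher, which makes 1 member higher in place of 0, with a filter at 1 FPKM (log2 fold change 0.59), a common median (0.61), a common sum over protein-coding genes (0.63) and a replicate block (0.59, adjusted p = 0.0474), and not with the other settings, over all of which its adjusted p ranged from 0.0357 to 0.158. STEAP1, which was not called, had a log2 fold change from −0.014 to 0.068 with each library left out and changed sign without parental replicate 1 (−0.014), and under quantile normalization it was 0.17 (adjusted p = 0.0735). Over all genes, 3570 were called lower at an adjusted p below 0.01, and 6979 genes were called with a 2-fold requirement, 3320 of them lower, against 10868 and 5463. Same-numbered libraries did not deviate together (correlations of 0.008, 0.017 and −0.003), so that the numbers were not taken as pairs, and the replicate block changed no member's call except that of ACPP. Depth limits PSCA and MSMB in the resistant cells and CEACAM5 in both.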
